A study of Mus musculus with 15 samples.

Results

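Cultured mouse lymphatic endothelial cells (LECs) exposed to angiotensin II (Ang II) for 24 h were compared with cells exposed for 12 h, with 5 arrays at each time. The genes described are the 19572 probe sets with 1 annotated gene symbol (19505 symbols) among the 22206 probe sets measured. A probe set was called well measured where its mean over the 10 Ang II arrays lay above 6.26 on the log2 scale, and near background otherwise. That mean covers both times, so a gene close to 6.26 may be classed through its 12 h or its 24 h arrays alone. That mark is the 95th percentile of 485 probe sets of gene families seldom transcribed outside their own tissues, namely the defensins, the keratin-associated proteins and the taste, trace amine and vomeronasal receptors. By this rule 2857 probe sets (14.6%) were well measured and 16715 (85.4%) were near background. The probe sets nearest to the mark were those of Med7 and Sfxn4, with means of 6.26 just below it, and of Psmd9 and Gng2, with means of 6.261 just above it. Between 12 h and 24 h 5 genes changed at an adjusted p under 0.05: Dusp10, Myc and Gm5885 fell, and Ube2u and Nsun3 rose.

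The 12 h and 24 h groups are labelled as a murine LEC line in DMEM with serum, given Ang II at 500 nM, and 5 further arrays of cells given saline served as the control group. The cells were bought, and no genotype, strain or age of their donor is stated. The methods of the study also give a lower Ang II concentration, and the labels are followed here. The harvest time of the saline cells is not stated, and there was no saline group at each time, so a longer exposure to Ang II and a longer time in culture cannot be told apart in the comparison of 24 h with 12 h. The saline arrays entered only the estimate of the spread, and their levels are given beside those of the treated cells. The replicates are numbered but not described as separate cultures, so the p-values measure only how far these samples differ, and that spread may be technical. The array that the methods name is not the design from which the probe set identifiers come. The number of arrays limits the precision.

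Ang II is the effector peptide of the renin-angiotensin system. It acts mainly through the type 1 receptor, a G protein coupled receptor that feeds into the mitogen-activated protein (MAP) kinases ERK, p38 and JNK. These kinases switch on early response genes such as those of the Jun, Fos, Egr and Myc families within minutes to hours, and dual-specificity phosphatases switch the kinases off again. LECs line lymphatic vessels, are specified by the transcription factor Prox1 and depend on signaling of Vegfc through Vegfr3, the product of Flt4. The comparison of 24 h with 12 h asks which transcripts differed between a later and an earlier time of exposure.

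The 10 arrays resembled each other closely. Array medians ran from 4.81 to 4.84. Across probe sets the arrays correlated at r = 0.967 to 0.972 within 12 h, at 0.963 to 0.971 within 24 h and at 0.960 to 0.970 between the times, so a pair of arrays from different times was about as alike as a pair from the same time. Ang II 24 h replicate 3 stood apart, with a residual SD of 0.299 against 0.258 to 0.285 for the other 9 arrays. The deposited values end at 19.93, and 4 probe sets lay at that ceiling on every array, where no difference can be seen. The labelled cell type was checked against marker genes. Of 18 probe sets of lymphatic identity genes only those of Nr2f2 and Ccl21a were well measured, at 11.34 and 6.49 at 12 h and 11.55 and 6.43 at 24 h. Prox1 (4.94 and 5.07), Lyve1 (4.40 and 4.32) and Flt4 (4.69 and 4.70) were near background at both times, as were all 19 pan-endothelial probe sets, Pecam1 and Cdh5 among them. Gapdh, a glycolytic enzyme often used as a reference gene, was near background too, at 4.27 ± 0.36 (SD, n = 5) and 4.29 ± 0.32, whereas Actb was at 12.56 ± 0.30 and 12.32 ± 0.26. Levels on such arrays depend on the probes, so a value near background does not show that a gene was silent. The gene of each probe set is that of the platform annotation, and whether that pairing holds for every row of these files was not tested, so the gene names below rest on it.

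Each probe set was tested with limma for the contrast of 24 h minus 12 h, and p-values were adjusted by the Benjamini-Hochberg method over all 22206 probe sets. The 5 probe sets called made up 0.0225% of those tested and 0.0255% of those with 1 symbol, with 2 higher (0.00901% of those tested) and 3 lower (0.0135%). Of the well measured probe sets 2 (0.0700%) were called, both lower at 24 h. Of those near background 3 (0.0179%) were called, 2 of them higher. At an unadjusted p under 0.05 there were 682 higher probe sets (3.07%) and 648 lower ones (2.92%), 1330 in all (5.99%) where 1110.3 would make 5%. For 236 of the probe sets with 1 symbol (1.21%) the 5 arrays of one time lay entirely on one side of the 5 of the other, 106 above (0.542%) and 130 below (0.664%) at 24 h.

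Most differences were small. The median difference was -0.01 among well measured probe sets and 0.01 among those near background, with SDs of 0.21 and 0.20 across probe sets. A difference of at least 0.5 in either direction was seen for 53 well measured probe sets, 19 higher and 34 lower at 24 h, and for 297 near background, 156 higher and 141 lower. Only 3 probe sets with 1 symbol differed by more than 1, those of Dusp10, Ube2u and Nsun3. The share with an unadjusted p under 0.05 was 4.42% among probe sets with a mean under 4 and 6.51% between the mark and 8. It was 9.71% between 8 and 10, 11.6% between 10 and 12 and 12.4% above 12. The median residual SD was 0.272 in the lowest and 0.197 in the highest of these classes. Lower calls outnumbered higher ones among the well measured probe sets, with 127 (4.45%) against 98 (3.43%) at an unadjusted p under 0.05, while near background 492 (2.94%) were higher and 441 (2.64%) lower. Without Ang II 24 h replicate 3, the array that stood apart, the order turned round, with 83 well measured probe sets lower and 104 higher.

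**Figure D1:**
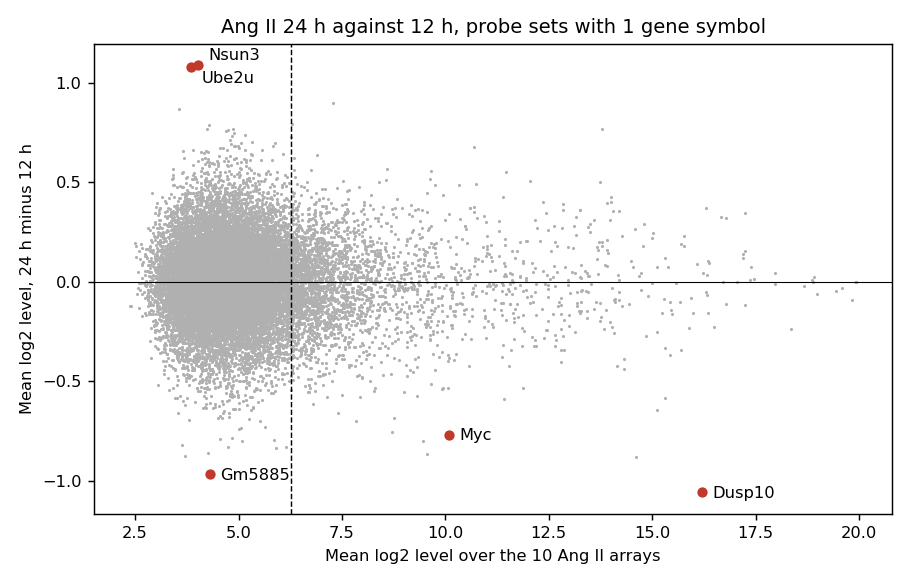
Difference in mean log2 level between 24 h and 12 h of Ang II (y axis) against the mean log2 level over the 10 Ang II arrays (x axis), with 1 point for each of the 19572 probe sets with 1 gene symbol and the 5 with an adjusted p under 0.05 in red. The dashed line is the mark of 6.26, and Dusp10 and Myc are the called genes to its right.

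**Figure D2:**
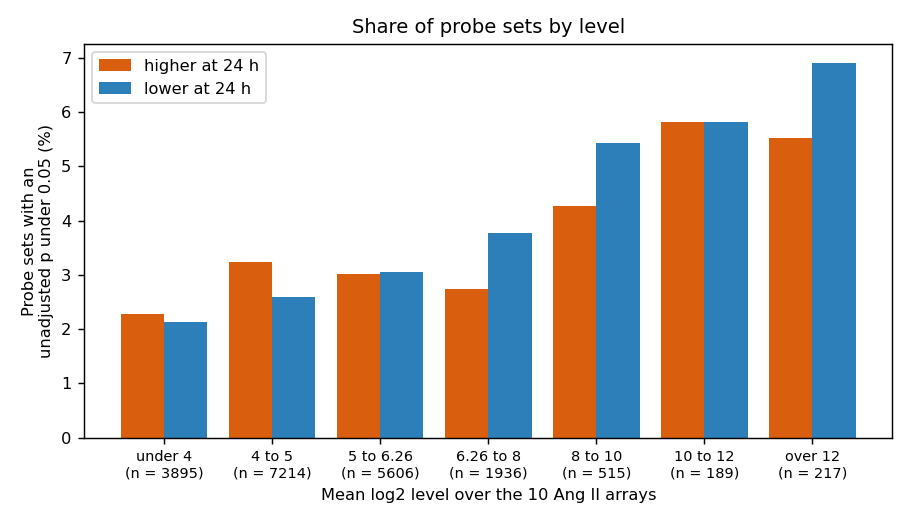
Percent of probe sets with an unadjusted p under 0.05 (y axis), higher (orange) or lower (blue) at 24 h, in classes of mean log2 level over the 10 Ang II arrays (x axis, with the number of probe sets). Both shares are at 2.28% and 2.13% in the lowest class and at 5.53% and 6.91% in the highest.

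Dusp10 and Myc were the well measured genes that fell. Dusp10 encodes a dual-specificity phosphatase that acts on p38 and JNK and so ends their activity. Its log2 levels at 12 h were 16.67, 17.13, 17.02, 16.60 and 16.22 in replicates 1 to 5, and at 24 h they were 15.83, 15.78, 15.55, 15.87 and 15.31. Every 24 h array lay below every 12 h array, with a gap between 15.87 and 16.22. Dusp10 thus fell by 1.06 (standard error 0.17, adjusted p = 0.0424 with limma), from 16.73 ± 0.36 (SD, n = 5) to 15.67 ± 0.24, a level 2.08-fold higher at 12 h than at 24 h. The saline arrays were at 17.12 ± 0.20. In bulk RNA such as this, fewer cells of a kind and less RNA per cell cannot be told apart.

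Myc encodes a transcription factor that drives ribosome production, metabolism and entry into the cell cycle. Its levels were 10.58, 10.49, 10.52, 10.34 and 10.42 at 12 h and 9.76, 9.89, 9.34, 9.65 and 9.86 at 24 h. The 12 h arrays spanned nearly the same range as the saline arrays (10.35 to 10.62), and all 24 h arrays lay below both groups. Myc fell by 0.77 (standard error 0.13, adjusted p = 0.0451 with limma) from 10.47 ± 0.09 to 9.70 ± 0.22, a level 1.71-fold higher at 12 h. The lowest array, at 9.34, was replicate 3, the array that stood apart, and without it the difference was -0.68 (adjusted p = 0.126).

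Both calls were close to the threshold. With only the 10 Ang II arrays in the fit, which leaves the saline arrays out of the spread, the adjusted p was 0.150 for Dusp10 and 0.198 for Myc, and no probe set was called. When each of the 15 arrays was left out in turn, Dusp10 kept its call only without Ang II 12 h replicate 5 (adjusted p = 0.0214) and lost it in the other 14 fits (0.0527 to 0.215), and Myc lost it in all 15 (0.0602 to 0.221). The differences themselves stayed between -1.19 and -0.96 for Dusp10 and between -0.82 and -0.68 for Myc.

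**Figure D3:**
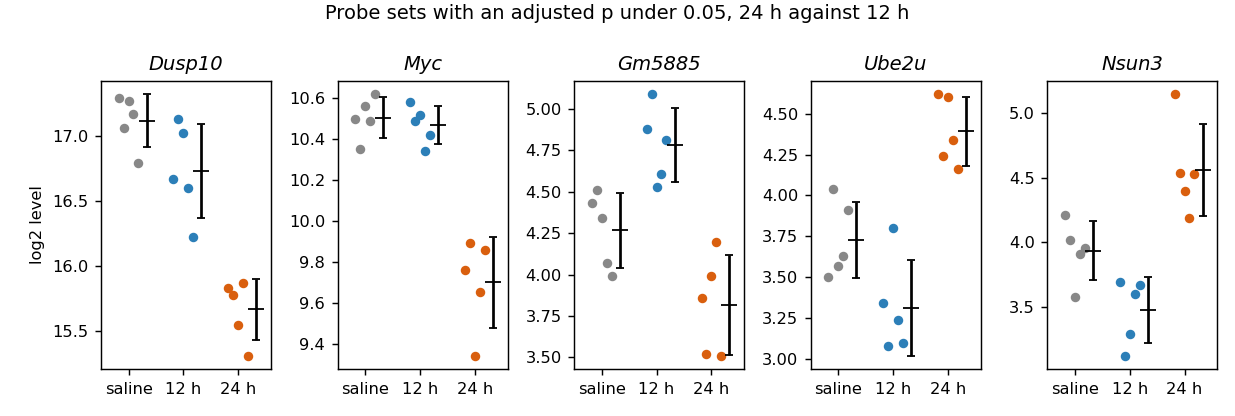
Log2 level (y axis, a separate scale for each gene) of the 5 genes with an adjusted p under 0.05 in the saline, 12 h and 24 h groups, with 1 point per array and the mean ± SD of 5 arrays beside the points. The 12 h and 24 h arrays do not overlap in any of the 5 panels.

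The sequences before the transcription start of the well measured genes with the smallest p-values are shown because a difference in transcript level can arise there. The RefSeq promoter table on GRCm38.p6 held 4 of the 6 genes looked up (Dusp10, Myc, Vcp, Ypel3, Sprr1b and Cox6c). The 250 bases before the start of Dusp10 (chr1:184034131-184034380, plus strand), of Vcp (chr4:43000508-43000757, minus strand) and of Ypel3 (chr7:126776713-126776962, plus strand) are printed 5′ to 3′ along the strand of the gene, with matches to the motifs searched in capitals.
Dusp10: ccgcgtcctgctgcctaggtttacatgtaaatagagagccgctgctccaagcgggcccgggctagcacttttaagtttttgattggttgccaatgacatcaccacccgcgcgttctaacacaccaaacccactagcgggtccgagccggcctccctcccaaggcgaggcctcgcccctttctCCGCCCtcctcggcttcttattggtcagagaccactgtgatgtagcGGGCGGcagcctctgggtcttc
Vcp: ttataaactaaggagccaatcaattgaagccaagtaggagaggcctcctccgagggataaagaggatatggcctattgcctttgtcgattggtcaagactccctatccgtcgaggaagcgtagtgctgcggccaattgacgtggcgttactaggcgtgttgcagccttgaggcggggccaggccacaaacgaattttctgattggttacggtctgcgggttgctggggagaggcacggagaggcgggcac
Ypel3: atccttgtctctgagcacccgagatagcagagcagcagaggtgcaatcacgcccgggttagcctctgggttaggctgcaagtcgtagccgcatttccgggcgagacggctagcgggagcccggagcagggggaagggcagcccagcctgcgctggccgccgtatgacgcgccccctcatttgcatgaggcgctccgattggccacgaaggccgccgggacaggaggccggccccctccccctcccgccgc
On both strands, sites of the AP-1 factors (TGACTCA), CREB (TGACGTCA), Myc and related factors (the E-box CACGTG), the Egr factors (GCGTGGGCG), D-box factors (TTATGTAA), Sp1-like factors (the GC box GGGCGG) and serum response factor (the CArG box) were searched. Dusp10 held 2 GC boxes, 68 and 22 bases before the start, a motif found in 32.7% of the 32851 promoters of the table. The windows of Vcp and Ypel3 held none of these letters. Across all promoters 4.46% held the AP-1 site, 1.55% the CREB site, 6.02% the E-box, 0.536% the Egr site, 0.819% the D-box and 1.47% the CArG box. A match describes the letters and is not a bound site.

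The other 3 genes that changed were near background. Ube2u, which encodes a ubiquitin-conjugating enzyme, had levels of 3.34, 3.08, 3.80, 3.24 and 3.10 at 12 h and 4.62, 4.24, 4.60, 4.34 and 4.16 at 24 h. It rose by 1.08 (standard error 0.16, adjusted p = 0.0417 with limma), and the saline arrays, at 3.73 ± 0.23, lay between the times. Nsun3, an RNA methyltransferase of mitochondrial methionine tRNA, had levels of 3.69, 3.12, 3.29, 3.60 and 3.67 at 12 h and 5.15, 4.54, 4.40, 4.19 and 4.53 at 24 h. It rose by 1.09 (standard error 0.18, adjusted p = 0.0424), with a saline mean of 3.94 ± 0.23. Gm5885, a predicted gene, had levels of 4.88, 5.09, 4.53, 4.61 and 4.81 at 12 h and 3.86, 3.52, 3.99, 4.20 and 3.51 at 24 h. It fell by 0.97 (standard error 0.16, adjusted p = 0.0451), and its saline mean of 4.27 ± 0.23 again lay between the times. No array of the 3 genes reached the mark, and none of the 3 was called from the 10 Ang II arrays alone (adjusted p = 0.150 for each). Ube2u kept its call when Ang II 12 h replicate 3, Ang II 24 h replicate 4 or control replicate 2 or 3 was left out, Nsun3 without Ang II 24 h replicate 4 or control replicate 3, and Gm5885 only without Ang II 24 h replicate 4.

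Below the threshold, the well measured genes with the smallest p-values were described one by one. None of the genes in this and the next paragraphs passed the adjusted test, and their values are given as measured. Vcp encodes an ATPase that pulls ubiquitinated proteins out of membranes and complexes. Its levels were 14.86, 15.28, 14.87, 14.90 and 15.30 at 12 h and 14.40, 14.19, 13.94, 14.04 and 14.22 at 24 h, a difference of -0.88 (standard error 0.17, adjusted p = 0.169 with limma) with no overlap. Psmc4, an ATPase subunit of the regulatory particle of the proteasome, was at 10.20, 9.88, 9.90, 10.06 and 9.87 and then at 9.16, 9.44, 8.68, 9.36 and 8.93, a difference of -0.87 (adjusted p = 0.612). Its arrays did not overlap either, but its saline arrays spread by an SD of 0.62 around 9.97. Ahsa1, an activator of the chaperone Hsp90, differed by -0.69, with 12 h arrays between 8.84 and 9.46 and 24 h arrays between 7.99 and 8.75.

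Txn1 (thioredoxin) was at 8.55, 8.41, 7.92, 7.93 and 8.15 at 12 h and at 7.66, 7.36, 6.98, 7.78 and 7.68 at 24 h, and Prdx1, a peroxiredoxin that reduces hydrogen peroxide, was at 15.20 to 15.96 and then at 14.45 to 15.15. Their differences were -0.70 and -0.64 (adjusted p = 0.612 for both), and neither gene's arrays overlapped. Tubb6, a beta-tubulin (-0.66), and Emp3, a small membrane protein (-0.54), were of the same rank, and of these Emp3 overlapped and Tubb6 did not.

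Among the higher genes, Ypel3, a small protein linked to growth arrest in human cells, was at 13.25, 13.58, 13.32, 13.44 and 13.37 at 12 h and at 14.10, 13.97, 14.04, 14.61 and 14.07 at 24 h, a difference of 0.77 (standard error 0.15, adjusted p = 0.169 with limma). The arrays did not overlap, and the saline mean of 13.81 ± 0.24 lay between them. Ypel3 and Vcp were called when the spread was moderated with an intensity trend and robust settings (adjusted p = 0.0364 for both) and when only probe sets above the mark were tested (0.0465 and 0.0493). Cox6c, a subunit of cytochrome c oxidase, had the largest difference of the well measured genes in the upward direction, 0.90 (adjusted p = 0.612), but its 24 h arrays ran from 7.0 to 8.50 and overlapped the 12 h range of 6.51 to 7.33. Sprr1b, a precursor of the cornified envelope of keratinocytes, differed by 0.79, with 24 h arrays of 6.48 to 7.14 against 5.43 to 6.28. The others were the histone genes H3c8 (0.56), H2ac1 (0.56) and H3c11 (0.48), the chromatin remodeler Chd7 (0.46), the G protein subunit Gnao1 (0.55), Tango2 (0.57) and Ccdc82 (0.62). Ccdc82 was also below the mark at 12 h, with a mean of 6.02 against 6.64 at 24 h. Sprr1b and Ccdc82 were thus classed as well measured only through their higher 24 h arrays.

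**Figure D4:**
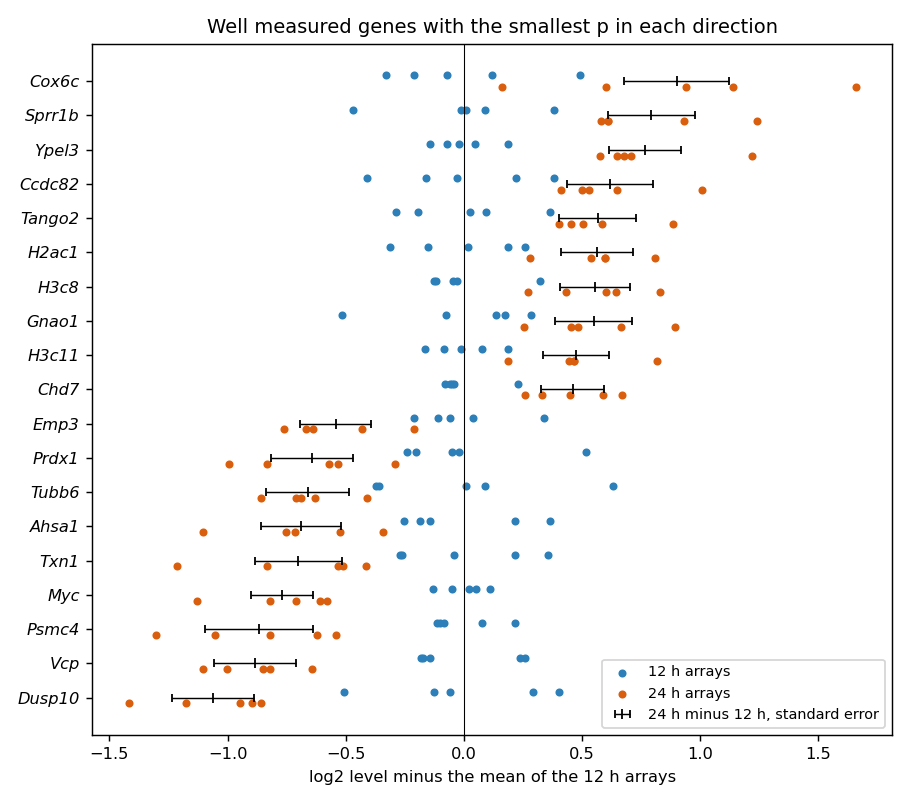
Log2 level of each of the 10 Ang II arrays minus the mean of the 12 h arrays (x axis) for the 10 well measured genes with the smallest p in each direction (1 of the lower ones is not shown), 12 h in blue and 24 h in orange. The bars give the difference of 24 h minus 12 h with its standard error, from -1.06 for Dusp10 to 0.90 for Cox6c.

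The genes were then read by function in 43 lists, described by counts beside the shares over all probe sets (3.07% higher and 2.92% lower at an unadjusted p under 0.05). Of all 2857 well measured probe sets 1357 had a higher mean at 24 h and 1481 a lower one. Without Ang II 24 h replicate 3, the array that stood apart, a count of higher or lower members moved by more than 1.5 times in 24 of the 43 lists, and those counts are given beside the list. No list member other than Dusp10 and Myc passed the adjusted test. Histone genes, whose replication-dependent copies are transcribed mainly while DNA is copied, mostly had higher means at 24 h. Of 49 well measured histone probe sets 44 had a higher mean at 24 h and 5 a lower one, with a median difference of 0.17, and of all 86 histone probe sets 8 were higher and 1 lower at an unadjusted p under 0.05. H2ac1 was at 6.72, 6.48, 6.65, 6.31 and 6.15 and then at 7.0, 7.06, 6.74, 7.06 and 7.27, without overlap, and H3c11 was at 7.51 to 7.86 and then at 7.86 to 8.49. H4c14 differed by 0.48 although Ang II 24 h replicate 3, at 9.92, lay far below the other 24 h arrays (10.62 to 10.85). Histone copies are nearly identical in sequence, and H3c14 and H3c15 held the same value on every array, so the members are not separate measurements. With each array left out in turn the median over all histone probe sets stayed between 0.07 and 0.11. Without Ang II 24 h replicate 3, 46 of the 49 well measured probe sets had higher means and 2 lower ones, and 10 of the 86 were higher and 0 lower at an unadjusted p under 0.05.

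Of 53 probe sets of G1/S and DNA replication genes 2 were higher and 0 lower at an unadjusted p under 0.05, namely Rfc4, part of the clamp loader (0.42), and Mcm6, part of the replicative helicase (0.31). Rfc4 was at 13.60 to 14.05 at 12 h and at 13.87 to 14.45 at 24 h, so that the ranges met. Among the 14 well measured members 11 had higher and 3 lower means, and without Ang II 24 h replicate 3 the counts of the list were 1 higher and 0 lower. Of 48 probe sets of G2/M and mitosis genes only Pttg1 (securin), near background, had an unadjusted p under 0.05, with -0.42, and the median of the list was -0.08. Without that array the counts turned round to 1 higher and 0 lower, and Pttg1 was at -0.36. The list of CDK inhibitors and p53 targets had 3 higher and 1 lower of 27, and 2 higher and 0 lower without that array. Its stress sensor Sesn1, near background, was at 4.48 to 5.34 and then at 5.25 to 5.65.

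Proteasome subunits mostly had lower means at 24 h. Of 23 well measured probe sets 20 had a lower mean at 24 h and 2 a higher one, with a median difference of -0.15. The 15 near background had a median difference of -0.02. Of all 38 probe sets 5 were lower and 0 higher at an unadjusted p under 0.05. These 5 came from the core (Psmb7, -0.54, and Psma7, near background, -0.51) and from the regulatory particle (Psmc4, -0.87, and Psmd3, -0.43), with Psmd13 (-0.42), named here after its value was seen, as the fifth. Psmb7 was at 10.56, 10.12, 10.40, 10.35 and 10.28 at 12 h and at 9.87, 9.98, 9.17, 10.06 and 9.95 at 24 h. The lowest of these was again replicate 3, and without that array the difference was -0.38. Across the list, 18 of the 23 well measured means were lower and 4 higher without that array, 4 of 38 probe sets were lower and 0 higher at an unadjusted p under 0.05, and the median over all 38 was -0.07 against -0.11 with it.

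In the list of oxidative and heat stress genes 4 of 27 probe sets were lower and 0 higher at an unadjusted p under 0.05. Beside Txn1 and Prdx1 these were Hspb1, a small heat shock protein, and Nqo1, a quinone reductase induced by Nrf2. Hspb1 was at 7.16, 8.13, 7.30, 7.49 and 7.42 and then at 7.03, 7.02, 6.89, 7.01 and 7.06, a difference of -0.50 in which the 24 h arrays lay close together. Nqo1, near background, was at 4.79 to 5.06 and then at 3.61 to 4.99 (-0.68). The median was -0.19 over the 9 well measured members and -0.02 over all 27. Without Ang II 24 h replicate 3 the counts of the list were 4 lower and 2 higher. The list of unfolded protein and ATF4 response genes had 1 higher and 0 lower of 42, which was Atf4 itself (0.40), the transcription factor of the amino acid and stress response, and 2 higher and 0 lower without that array.

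Of the early response genes only Myc passed the adjusted test. Of 38 probe sets 3 were lower (Myc, Egr3 and, near background, Fosl2) and 1 higher (Jun) at an unadjusted p under 0.05, and 10 of the 13 well measured members had lower means. Without Ang II 24 h replicate 3 the counts were 2 lower and 1 higher, and the list median was -0.07 against -0.12 with that array. Egr3, a zinc finger factor of the immediate response, was at 7.12, 7.21, 7.12, 6.75 and 6.81 at 12 h and at 6.89, 6.93, 6.33, 6.34 and 6.06 at 24 h (-0.49), with overlap. Jun, a subunit of AP-1, was at 9.03, 9.25, 9.74, 9.85 and 9.66 and then at 10.38, 10.21, 9.91, 9.73 and 9.72 (0.48, adjusted p = 0.791 with limma). Its 24 h arrays overlapped the upper part of the 12 h range. Of the 10 MAP kinase phosphatase probe sets only Dusp10 had an unadjusted p under 0.05. Dusp4 (-0.29) and Dusp5 (-0.25) were the other 2 well measured members, and the remaining 7, Dusp1 and Dusp6 included, were near background with differences between -0.04 and 0.23. Dusp4 was classed as well measured only through its 12 h mean of 6.43, as its 24 h mean of 6.14 lay below the mark.

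Hes1, a transcriptional repressor induced by Notch, lay just under the mark in its mean over the 10 Ang II arrays (6.14). All its 12 h arrays were above the mark and all its 24 h arrays below it. Its levels were 6.66, 6.63, 6.61, 6.61 and 6.28 at 12 h and 6.14, 5.75, 5.17, 5.95 and 5.63 at 24 h, a difference of -0.83 (standard error 0.16, adjusted p = 0.169 with limma). The arrays did not overlap, and the saline arrays were at 7.03 ± 0.17. Hey1, a related repressor, was well measured and differed by -0.61, from 6.71 to 7.54 at 12 h to 6.17 to 6.70 at 24 h, while its saline mean was 6.71. The Notch ligand Dll1, near background, differed by 0.61. The other 22 of the 25 Notch pathway probe sets had unadjusted p-values of 0.05 or more. In the circadian clock list 1 of 25 was higher and 2 were lower at that threshold, with Bhlhe40, a repressor of the clock, at -0.39, and the median was 0.03. The counts of the clock list were 1 and 1 without Ang II 24 h replicate 3.

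Genes of mitochondria and of protein synthesis were mixed. Of 84 probe sets of oxidative phosphorylation subunits 4 were higher and 3 lower at an unadjusted p under 0.05, with Cox6c above and Atp5b, a catalytic subunit of ATP synthase, below (-0.46, from 8.72 to 9.08 at 12 h to 8.03 to 8.84 at 24 h). Cytosolic ribosomal proteins had 0 higher and 4 lower of 65, all 4 near background, and a median of -0.06 over the 38 well measured members. Mitochondrial ribosomal proteins had 1 higher and 2 lower of 76. The lower ones were Mrpl47 (4.89 to 5.49 at 12 h, 4.16 to 4.59 at 24 h, a difference of -0.83) and Mrpl45 (-0.73), both near background. Translation factors had 2 higher and 2 lower of 61, splicing factors 2 and 3 of 79 with Luc7l3 at -0.47, and genes of ribosome biogenesis, many of them Myc targets, 2 and 2 of 48 with a median of 0.00. Without Ang II 24 h replicate 3 the counts were 2 higher and 2 lower for oxidative phosphorylation, 0 and 2 for cytosolic and 2 and 2 for mitochondrial ribosomal proteins, and 1 and 0 for translation factors.

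**Figure D5:**
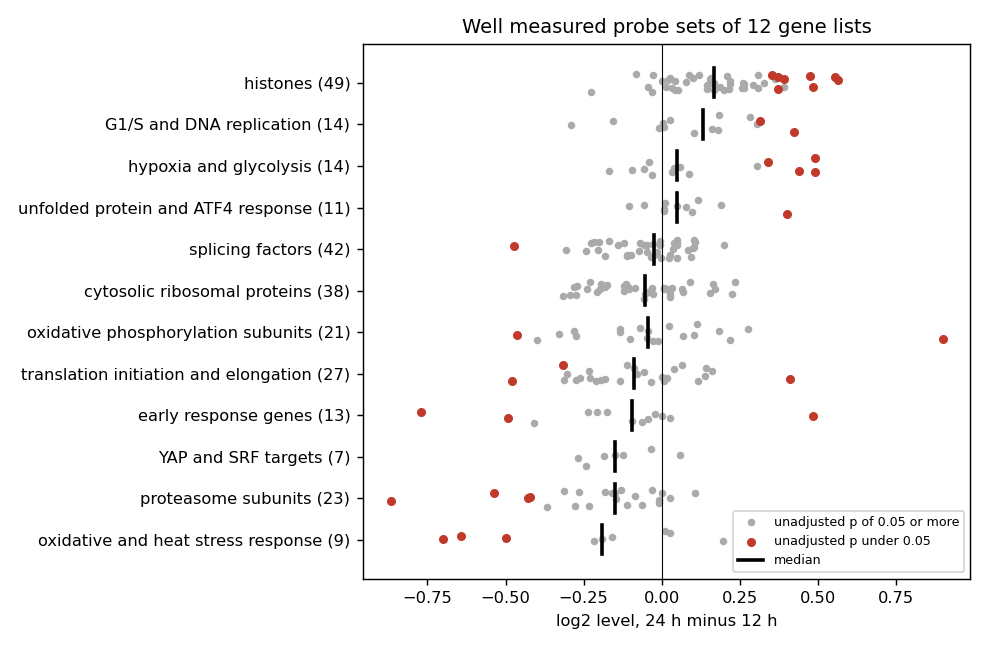
Difference in log2 level between 24 h and 12 h (x axis) for the well measured probe sets of 12 gene lists (y axis, with their number), with 1 point per probe set, red for an unadjusted p under 0.05, and the list median as a black line. The medians run from 0.17 for histones to -0.19 for the oxidative and heat stress genes.

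Hypoxia and glycolysis genes had 5 higher and 1 lower of 38 at an unadjusted p under 0.05, and 4 of the 5 higher ones were well measured. Stc2 and Stc1, secreted stanniocalcins, differed by 0.44 and 0.34. Stc2 was at 9.64, 10.05, 9.58, 9.82 and 9.57 and then at 10.19, 10.02, 10.58, 9.92 and 10.14. P4ha2, a collagen prolyl hydroxylase, and Bnip3l, a receptor for the removal of mitochondria, each differed by 0.49, and Mxi1, an antagonist of Myc near background, by 0.45. All 5 overlapped between the times. P4ha2 and Stc1 were classed as well measured only through their higher 24 h arrays, as their 12 h means of 6.16 and 6.23 lay below the mark. Tpi1, an enzyme of glycolysis near background, was the lower one (-0.46). The median over all 38 was 0.02.

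Extracellular matrix genes showed few differences. In the list of basement membrane and laminin genes 3 of 22 were higher and 0 lower at an unadjusted p under 0.05, all 3 near background and without overlap. Lamc3, a laminin gamma chain, was at 5.27, 5.38, 5.48, 5.00 and 5.33 and then at 5.58, 5.77, 5.73, 5.62 and 5.51 (0.35), Lamb1, a laminin beta chain, went from 5.31 to 5.57 at 12 h to 5.69 to 5.99 at 24 h (0.31), and Col4a5, a chain of collagen IV, from 3.99 to 4.46 to 4.57 to 4.75 (0.36). The list median was -0.04, and without Ang II 24 h replicate 3 only 1 member was higher at that threshold. Sparc, a collagen-binding matricellular protein, was at 6.35 to 6.78 and then at 6.0 to 6.29 (-0.37). It was classed as well measured only through its 12 h mean of 6.51, as its 24 h mean of 6.14 lay below the mark. Itga3, an integrin chain that binds laminin, was above the mark at both times, at 7.72 to 8.0 and then at 7.34 to 7.66 (-0.33). Neither gene's arrays overlapped. In the other direction, Thbs3, a thrombospondin near background, differed by 0.28 without overlap, and the integrin chains Itgb8 (0.55) and Itgb4 (0.39), near background too, overlapped. The integrin list thus had 2 higher and 1 lower of 25, and 1 of each without Ang II 24 h replicate 3, while matricellular proteins had 1 higher and 1 lower of 29, and 0 and 2 without it. Other collagens had 2 higher and 0 lower of 34. None of the 48 probe sets of matrix proteases and their inhibitors had an unadjusted p under 0.05 (1 was lower without that array), and among the 66 of junction proteins 2 were higher and 0 lower.

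The receptor for Ang II itself was near background. Agtr1a, the type 1 receptor, was at 5.70, 5.67, 6.19, 5.69 and 6.08 at 12 h and at 5.93, 5.25, 4.97, 5.38 and 4.82 at 24 h, a difference of -0.60 (standard error 0.20, adjusted p = 0.787 with limma). The first 24 h array lay within the 12 h range and the other 4 below it. It was the only one of 17 probe sets of the renin-angiotensin list with an unadjusted p under 0.05. Ace, the enzyme that makes Ang II, was near background too, at 2.98 to 3.62 and then at 3.19 to 4.10. The list of VEGF and angiopoietin ligands and receptors (22 probe sets) also held Hgf, hepatocyte growth factor, which belongs to neither family. Only Hgf, near background, had an unadjusted p under 0.05 (-0.49), and no VEGF or angiopoietin gene did. Among the others were Vegfc (-0.09), Vegfa (0.09) and Kdr, near background (0.39, adjusted p = 0.865 with limma). The difference of Kdr was 0.25 without Ang II 24 h replicate 3, and that of Ace was 0.21 without Ang II 24 h replicate 1 and 0.34 with all arrays.

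Among the signaling lists, Jak-STAT genes had 2 higher and 1 lower of 33. Il6st, the shared receptor chain gp130, was near background at 3.07 to 3.24 and then at 3.42 to 3.94, and the feedback inhibitor Socs2 was at -0.39. TGF-beta and BMP genes had 2 higher and 2 lower of 39, with the inhibitory Smad6, near background, at 6.15 to 6.52 and then at 5.63 to 6.10. Wnt genes had 1 higher and 3 lower of 33, interferon genes 2 and 3 of 42, and NF-kB and inflammatory genes 2 and 2 of 41. The growth factor Csf1 of the last list, near background, was at 5.37 to 6.05 at 12 h and at 4.74 to 5.26 at 24 h (-0.63). YAP and SRF targets had 0 higher and 2 lower of 20, and 6 of their 7 well measured members had lower means. Glucocorticoid receptor targets had 1 higher and 0 lower of 15, genes of cholesterol and fatty acid synthesis 2 and 0 of 31, and Sprouty and Spred inhibitors 0 and 0 of 7. Leaving out Ang II 24 h replicate 3 gave counts of 4 higher and 1 lower for Jak-STAT, 2 and 1 for TGF-beta and BMP, 0 and 1 for Wnt, 0 and 3 for interferon and 0 and 0 for glucocorticoid receptor targets. The difference of Socs2 was -0.25 without Ang II 12 h replicate 1.

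Markers of other cell types were measured at both times. Epithelial markers had 1 probe set of 9 with an unadjusted p under 0.05, the keratin Krt8, at 7.98 to 8.33 at 12 h and at 6.85 to 8.17 at 24 h (-0.58). Its lowest array was again replicate 3, without which the difference was -0.39. Krt18, the other well measured epithelial marker, went the other way in its mean, by 0.24 (6.26 ± 0.07 to 6.50 ± 0.35), and 5 of the 9 means were higher. The 12 h mean of Krt18 was not above the mark, so this gene was classed as well measured only through its 24 h arrays. The fibroblast marker Dcn (-0.36) and the pan-endothelial marker Vwf (-0.38), both near background and overlapping, were the lower members of their lists with an unadjusted p under 0.05, and there were none among the leukocyte, smooth muscle and lymphatic markers. With Ang II 24 h replicate 3 left out the counts were 1 higher and 1 lower for epithelial, 0 and 1 for smooth muscle, and 0 and 0 for fibroblast and pan-endothelial markers. The mean log2 level of the 9 epithelial probe sets was 4.86 to 4.96 on the 12 h arrays and 4.66 to 5.02 on the 24 h arrays. That of 9 leukocyte probe sets was 4.73 to 5.15 and 4.80 to 4.95, and Ptprc, the pan-leukocyte marker, was the only one well measured (7.07 ± 0.28 and 7.26 ± 0.26). That of 13 fibroblast probe sets was 5.13 to 5.37 and 5.15 to 5.41, and that of 9 smooth muscle probe sets 5.01 to 5.31 and 4.93 to 5.32. In each of these lists the ranges of the times overlapped. The part of these cells in the differences above was not tested.

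The genes near background with the smallest p-values that did not pass the adjusted test were of several kinds. Rasl11a, a small GTPase of the Ras superfamily, was at 3.91, 4.29, 3.76, 4.48 and 4.32 at 12 h and at 3.52, 3.53, 3.23, 3.51 and 2.59 at 24 h (-0.88, adjusted p = 0.234 with limma). Its saline mean was 3.27, next to the 24 h mean of 3.28. Gm2888, a predicted gene, was at 4.61 to 4.97 and then at 4.99 to 5.91 (0.74). The vomeronasal receptors Vmn2r33 (-0.86) and Vmn1r4 (0.61) and the olfactory receptor Olfr1495 (0.62) were among them, all without overlap. Of 1091 olfactory receptor probe sets 49 were higher and 30 lower at an unadjusted p under 0.05, with a median difference of 0.03 and 16 of them well measured, and of the 485 probe sets of the usually silent families 20 were higher and 15 lower. Olfr77 was at 4.59, 4.63, 5.57, 5.18 and 6.21 at 12 h and at 5.35, 7.07, 6.0, 5.42 and 5.66 at 24 h, with an SD of 0.68 and 0.70 and a difference of 0.66 (adjusted p = 0.815), which was 0.37 without Ang II 24 h replicate 2.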

How the data were processed

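Total RNA of the LECs was hybridised to 15 arrays, of which the 5 arrays at 12 h and the 5 at 24 h were compared. The authors used GCOS to read the arrays and RMA to normalize them, and deposited log2 expression levels with 2 decimals. The version of GCOS and the genome build are not given in the sources used here. Gene symbols came from the platform annotation and were matched by gene identifier to a GRCm38.p6 table (19572 of 19572), and 2634 probe sets without exactly 1 symbol were tested but not named.

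The log2 values were tested as deposited with limma 3.58.1 in R 4.3.3, over all 15 arrays with 1 spread for the 3 groups (8.03 prior and 12 residual degrees of freedom), with Benjamini-Hochberg adjustment across the 22206 probe sets. The median standard error was 0.18. The script was first tested on simulated data holding planted changes. Probe sets of a gene were tested apart. The 43 gene lists, the rule for named genes and the sequences to show were chosen with earlier results of these data known, so lists were counted and not tested. Named genes were all called ones, the 10 well measured and 5 near background with the smallest p in each direction, up to 4 per list with the smallest p (all of lists of 25 or fewer), and genes the study names. That rule took 380 probe sets, of which the text gives a part, and 1 gene is left out as not reported here.

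Alternatives were a fit of the 10 Ang II arrays, quantile normalization, median centring, only probe sets above the mark, averaging per gene, array weights, robust moderation with an intensity trend or no moderation at all, a block for the replicate number, Duncan's test from the methods, a minimum fold of 1.2, and leaving out arrays. The counts of each list without the array that stood apart were added after seeing the data. RMA borrows across arrays, and low levels are compressed by it, so a difference near background can be understated. The PCR, protein and animal experiments were not analysed here.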

Additional observations from a re-analysis of the deposited data

Results flagged for a closer look

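In 20 of 272 groups of 5 arrays, those of 136 named genes at both times, the highest or lowest array lay far from the other 4 (its gap to the nearest of them was more than 0.71 of the range of the group). Chance alone flags about 1 group in 20, and the genes share arrays, so the number is a description.

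At 24 h, replicate 3 was the low array in 5 genes, with H4c14 at 9.92 (the others 10.62 to 10.85), Psmb7 at 9.17 (9.87 to 10.06), Eif3c at 7.01 (7.85 to 7.99), Cldn1 at 4.85 (5.56 to 5.75) and Fosl2 at 5.21 (5.77 to 5.99). The same array stood apart over all well measured genes, with the most extreme position of the 10 Ang II arrays (-15.9) on the leading principal component, which held 18.8% of their variance. The others at 24 h were Ypel3 in replicate 4 at 14.61 (13.97 to 14.10), Polr1e in replicate 1 at 4.21 (3.79 to 3.91), Sc5d in replicate 1 at 4.38 (3.90 to 4.02), Ajuba in replicate 5 at 5.18 (5.71 to 5.88) and Gapdh in replicate 5 at 4.86 (4.07 to 4.22).

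At 12 h, replicate 3 was apart in 4 genes, Chd7 at 7.68 (7.37 to 7.41), Tpi1 at 6.96 (6.21 to 6.40), Col4a5 at 3.99 (4.33 to 4.46) and Lamb1 at 5.31 (5.50 to 5.57). Replicate 5 was apart for Hes1 at 6.28 (6.61 to 6.66) and P4ha2 at 6.62 (5.93 to 6.13), replicate 4 for H3c8 at 9.69 (9.24 to 9.34) and Snrpa1 at 4.01 (4.63 to 4.88), and replicate 1 for Prdx1 at 15.96 (15.20 to 15.42) and Prox1 at 4.63 (4.98 to 5.04). For Ypel3 the far array lay on the side away from 12 h, and without it the difference was 0.65. The far array also enlarged the difference of several other genes, Prdx1, Tpi1, Fosl2 and Eif3c among them. It made the difference smaller for others, such as H4c14 and Cldn1.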

How the results depend on the processing

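The number of genes called depended on the fit, while the differences of the called genes kept their direction in every alternative that gave them. As reported, 2 probe sets were higher and 3 lower after adjustment at 0.05. The counts were 0 and 0, among well measured and near background probe sets alike, with only the 10 Ang II arrays in the fit, with no moderation, with Duncan's multiple range test, and without control replicate 3 and Ang II 24 h replicate 3 together. A lower number of arrays or degrees of freedom is part of the construction of each of these. With quantile normalization 1 was higher (Ube2u, near background) and 0 were lower, well measured or near background, with adjusted p-values of 0.0544 (Nsun3, Gm5885 and Myc) and 0.0554 (Dusp10) for the other 4 genes, and 34 well measured probe sets had all 24 h arrays above the 12 h arrays where 20 did as deposited. With only probe sets above the mark tested, 1 well measured probe set (Ypel3) passed upward after adjustment, and 124 were higher and 153 lower at an unadjusted p under 0.05, since fewer were tested. With an intensity trend and robust settings 1 well measured probe set (Ypel3 again) was higher. The cause of each change was not tested.

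The replicate numbers did not pair the arrays: same-numbered arrays of 12 h and 24 h correlated at r = -0.04 to 0.05 in their deviations from the group means, and 3 of 10 arrays correlated best with their own number. With the replicate number as a block, 1 probe set was higher (Nsun3, near background), 1 lower (Dusp10, well measured) and 0 lower near background.

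With each of the 15 arrays left out, 0 to 2 probe sets were higher (0 to 2 near background) and 0 to 1 lower (0 to 1 well measured, 0 to 1 near background) at an adjusted p under 0.05, and 83 to 137 well measured ones were lower at an unadjusted p under 0.05. Direction was followed for 136 of the 380 probe sets taken by the rule for named genes. These had an unadjusted p under 0.05 or were not taken through a list alone. Each had a difference in 10 or 11 of the 12 other settings and with each of the 15 arrays left out. In all of these, 134 of the 136 kept their direction. The exceptions were Flt4, with a difference of 0.01 that became -0.002 with quantile normalization and ran from -0.0815 to 0.0975 with arrays left out, and Gapdh, with 0.03 that ran from -0.1135 to 0.114. Depth cannot be read from normalized intensities, and below the mark a level may be background.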
